A study of Mus musculus with 21 samples.

Results

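Autophagy and lysosome genes were followed through 21 mouse heart RNA libraries. The set holds 40 genes, chosen by symbol for their known roles: 2 transcription factors of the TFEB family, 9 genes of initiation and nucleation, 6 of LC3 conjugation, 5 LC3 and GABARAP genes, 3 cargo receptors, 4 mitophagy genes, 4 lysosomal membrane genes and 7 genes of the lysosomal lumen. They were chosen with earlier results of these data known. All 40 were found among the 56691 genes of the deposited table, and all 40 were among the 13990 genes with a mean FPKM (counts scaled by exonic length and library total) of at least 0.5, which were the genes tested. Changes are log2 fold changes from edgeR's quasi-likelihood test on the counts, and a gene is said to have risen or fallen where its Benjamini-Hochberg adjusted p over all genes tested was under 0.05, with no minimum fold.

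The study asked how doxorubicin (DOX), an anthracycline that damages the heart, acts on hearts with and without a tumor in the body. Control (5 libraries) came from mice without a tumor given saline, and DOX (5) from mice without a tumor given doxorubicin. Tb (6) came from saline-treated mice carrying 4T1 tumors, and Tb-DOX (5) from tumor-bearing mice given doxorubicin. DOX was injected into the peritoneum at 5 mg/kg once a week, 3 times, and the 4T1 cells, a murine breast cancer line, were placed under the skin. Strain, sex, age and genotype are not given in the sources used here, and each library is a separate sample by its label. In the labels 4T1 stands as the source of all libraries, tumor-free groups included, whereas the study describes hearts. The summed level of 8 cardiomyocyte markers was 49495 to 91075 CPM (counts scaled to library size by TMM) in the 21 libraries, and 6 epithelial and mammary tumor markers summed to at most 4.58 CPM.

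Autophagy encloses cytoplasm in a double membrane, the autophagosome, and delivers it to the lysosome. The ULK kinases start the process, a phosphatidylinositol 3-kinase complex marks the membrane, and a ubiquitin-like conjugation chain attaches LC3 and GABARAP proteins to it. Cargo receptors and mitophagy receptors bind these proteins and tie cargo to the membrane. Lysosomal hydrolases then break the cargo down, and TFEB and TFE3 are known to drive many genes of both compartments. Heart muscle depends on this turnover for its mitochondria.

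Library totals were 13521200 to 18601445 counts. Libraries are named here by group and replicate number. Tb 5 stood apart: its median correlation with the other Tb libraries, on the log2 scale, was 0.9388, against 0.9696 or more for every other library within its own group. Tb 5 and Tb 6 carried levels of several members outside those of the other 4 Tb libraries, and DOX 3 and DOX 4 held the highest DOX levels of *Bnip3*, *Ctsl*, *Map1lc3b*, *Sqstm1* and *Ulk1*, so values without these pairs are given beside the calls that end when they are left out. In these bulk samples fewer cells of a type and less RNA per cell cannot be told apart.

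DOX without a tumor raised 13 of the 40 genes and lowered 5. The share changed was 45%, where 36.2% of all genes tested changed, 18.0% up and 18.2% down. The 18 genes were spread over 7 of the 8 roles. The median log2 fold change of the 40 was 0.11 against 0.00 over all genes tested, and the median size of change, sign ignored, was 0.24 against 0.35. Only *Bnip3* and *Ctsl* changed by at least 1 on the log2 scale, a size that 9.95% of all genes tested reached with an adjusted p under 0.05. Of the 40 genes, 7 lay wholly above Control in DOX, where 12.0% of all genes tested did, and 5 wholly below, where 13.3% did. The 7 were among the genes that rose, and the 5 were those that fell. The split of rises and falls depended on scaling: with library totals in place of TMM, 7 rose and 7 fell (17.5% each, where 10.2% of all genes tested rose and 25.2% fell), and the median over all genes tested moved from 0.00 to −0.14. Limma gave 7 and 7 on log2(FPKM + 0.1) and 6 and 7 on log2(FPKM + 1), where these fits called 35.5% and 34.5% of all genes tested. FPKM is itself scaled by library totals, so the limma fits here and below share that scaling. Without both DOX 3 and DOX 4, 11 of the 18 calls were kept, 7 were lost (*Pik3c3*, *Atg9a*, *Gabarapl1*, *Sqstm1*, *Optn*, *Bnip3l* and *Npc1*) and *Atg2b* was gained (0.27, adjusted p = 0.0319), while the share of all genes tested that changed went from 36.2% to 23.1%. With a tumor, DOX raised 1 of the 40, *Map1lc3a*, and lowered 0, where 2.18% of all genes tested rose and 2.54% fell. In that comparison 4.72% of all genes tested changed, 9 of the 40 had an unadjusted p under 0.05 in edgeR against 20.4% of all genes tested, and DESeq2 called 4, where it called 7.68% of all genes tested. Tb-DOX libraries lay wholly above Tb libraries for *Atg9a* and *Map1lc3a* (2.73% of all genes tested did) and wholly below them for *Lamp1* (2.22% did).

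**Figure D1:**
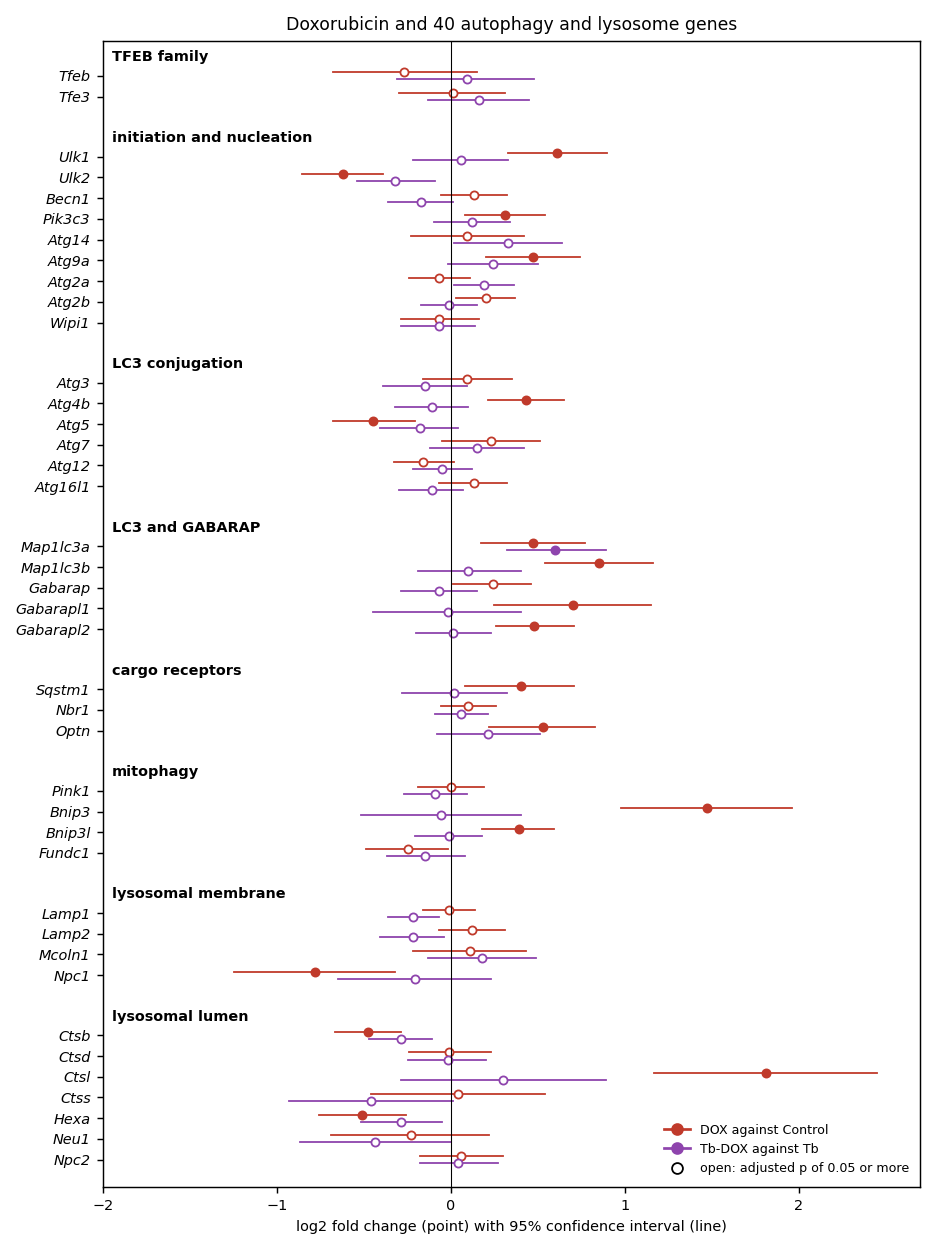
Log2 fold change (point) with its 95% confidence interval (line) for the 40 genes by role, DOX against Control in red and Tb-DOX against Tb in purple. Filled points have an adjusted p under 0.05. 18 red points and 1 purple point, *Map1lc3a*, are filled, and the red points of *Ctsl* (1.81) and *Bnip3* (1.47) lie farthest to the right.

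The 2 transcription factors were low in these hearts, with means over all libraries of 2.71 FPKM for *Tfeb* and 1.52 FPKM for *Tfe3*. DOX left neither past the test: the log2 fold change of *Tfeb* was −0.27 without a tumor (95% interval −0.68 to 0.15) and 0.09 with a tumor (−0.31 to 0.48), and that of *Tfe3* was 0.01 (−0.30 to 0.31) and 0.16 (−0.13 to 0.45). Levels of *Tfe3* were 12.3, 12.3, 10.7, 13.3 and 10 CPM in Control and 12.9, 12.9, 13.0, 8.58 and 11.3 in DOX. They ran from 12.4 to 17.3 (median 15.0) in Tb and were 17.3, 14.0, 18.2, 21.7 and 12.8 in Tb-DOX. Tb-DOX libraries were thus mostly above DOX libraries, with 1 of 5 inside the DOX range. *Tfe3* was higher in Tb-DOX than in DOX by 0.52 (SE 0.148, edgeR adjusted p = 0.0193), a call lost without DOX 4 (0.41) and also without Tb-DOX 4.

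TFEB and TFE3 are known to bind E-boxes, and the CLEAR element of lysosomal promoters is an E-box with flanking bases. Promoter sequence was looked up in the RefSeq table of build GRCm38.p6, which matched 32 of the 40 genes by symbol. The 250 bases before each start were searched on both strands. CACGTG, the E-box core, was present in 8 of the 32 genes (25%), *Atg3*, *Atg5*, *Atg7*, *Bnip3*, *Ctsd*, *Ctsl*, *Lamp1* and *Mcoln1*, and in 6.02% of all 32851 promoter windows. TCACGTG, with the flanking T and contained in the same sites, was present in 5 of the 32 (15.6%) and in 3.13% of all windows. None of those 5, *Atg3*, *Atg7*, *Ctsd*, *Lamp1* and *Mcoln1*, changed with DOX in either state, and of the 10 genes that rose without a tumor and have a window, 0 held TCACGTG and 2 held CACGTG, *Bnip3* and *Ctsl*. ACGTG, the core bound by hypoxia-inducible factors and contained in every CACGTG, was present in 14 of the 32 (43.8%) and in 16.6% of all windows, including 4 of the 10 that rose, *Bnip3*, *Ctsl*, *Atg9a* and *Gabarapl2*. TGACNNNGC, the antioxidant response element, was found in 3 of the 32 (9.38%) and 10.2% of all windows, and TGTTTAC, a FOXO site, in 0 of the 32 and 3.17% of all windows. Only 3 genes that fell without a tumor have a window. Of these, 2 held TGACNNNGC (*Hexa* and *Ulk2*), as did 0 of the 10 that rose, and 1 held CACGTG (*Atg5*). A match is a description of the letters, and no match says only that these letters are not in this window.

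The 140 bases before the RefSeq start are shown for 4 of the 5 genes with TCACGTG, which did not change with DOX, and for *Bnip3*, which rose. In their windows a GENCODE transcript of the gene began within 50 bases of that start, which was not so for *Atg7*, *Ctsl* and *Atg9a*. They are written 5′ to 3′ on the strand of the gene, in build GRCm38.p6, and capitals mark CACGTG. *Lamp1* holds 4 such sites in this stretch, *Atg3* and *Mcoln1* 2 each, and *Ctsd* and *Bnip3* 1 each. They lie at chr8:13159021-13159160 for *Lamp1* (plus strand), chr8:3500379-3500518 for *Mcoln1* (plus), chr7:142387828-142387967 for *Ctsd* (minus), chr16:45158689-45158828 for *Atg3* (plus), and chr7:138909507-138909646 for *Bnip3* (minus).
Lamp1: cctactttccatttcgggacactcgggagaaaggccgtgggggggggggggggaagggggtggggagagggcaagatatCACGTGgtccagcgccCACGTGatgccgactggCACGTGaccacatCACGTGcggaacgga
Mcoln1: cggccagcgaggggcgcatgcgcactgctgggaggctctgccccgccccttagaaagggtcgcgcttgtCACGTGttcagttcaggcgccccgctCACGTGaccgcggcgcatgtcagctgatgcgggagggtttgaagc
Ctsd: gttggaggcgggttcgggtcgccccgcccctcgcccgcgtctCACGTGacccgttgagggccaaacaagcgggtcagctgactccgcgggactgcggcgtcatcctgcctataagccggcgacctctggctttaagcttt
Atg3: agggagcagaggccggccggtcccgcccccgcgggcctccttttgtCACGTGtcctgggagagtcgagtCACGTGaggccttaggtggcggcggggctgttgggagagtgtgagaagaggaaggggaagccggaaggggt
Bnip3: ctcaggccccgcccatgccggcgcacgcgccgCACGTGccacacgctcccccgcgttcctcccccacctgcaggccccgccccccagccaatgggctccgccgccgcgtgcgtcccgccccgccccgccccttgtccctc

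Among the 9 genes of initiation and nucleation, DOX without a tumor raised 3 (*Ulk1*, *Atg9a*, *Pik3c3*) and lowered 1 (*Ulk2*), 44.4% in all where 36.2% of all genes tested changed. With a tumor it moved none of the 9 past the test. *Ulk1* and *Ulk2* encode the kinases that start autophagy, and they moved in opposite directions. *Ulk1* was at 43.5, 46.2, 37.0, 44.5 and 42.6 CPM in Control and at 57.6, 57.1, 75.1, 94.4 and 43.1 in DOX. Only DOX 5 lay in the Control range, and *Ulk1* rose by 0.61 (SE 0.139, edgeR adjusted p = 0.00179). *Ulk2* was at 106, 103, 84.2, 101 and 112 CPM in Control and at 78.0, 74.2, 58.8, 56.5 and 61.1 in DOX, without overlap. It changed by −0.62 (SE 0.112, adjusted p = 0.000267).

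Saline-treated tumor-bearing hearts held *Ulk1* at 48.8 to 54.3 CPM (median 52.5), above all 5 Control libraries, although the difference of 0.29 did not pass the test (adjusted p = 0.215). Tb-DOX libraries held 58.8, 58.2, 55.6, 51.4 and 47.9 CPM, overlapping with Tb. *Ulk2* ran from 71.6 to 106 CPM (median 93.0) in Tb, with Tb 5 and Tb 6 the lowest, and was 71.4, 72.1, 73.0, 63.9 and 78.7 in Tb-DOX. The difference of −0.32 missed the threshold (SE 0.108, adjusted p = 0.0914). Without Tb 5 and Tb 6, *Ulk2* fell by 0.43 with DOX in tumor-bearing hearts (SE 0.101, adjusted p = 0.00945). Whether the change differed between the states was not shown for either kinase (interaction adjusted p = 0.066 for *Ulk1* and 0.193 for *Ulk2*).

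*Atg9a*, the scramblase of the vesicles that seed the autophagosome, was at 27.5, 25.3, 14.9, 27.3 and 29.0 CPM in Control and at 33.4, 30.9, 38.4, 34.9 and 33.7 in DOX, without overlap (0.47, SE 0.13, edgeR adjusted p = 0.00819). Without Control 3, the lowest of its group, the value was 0.33 and the call was kept. The call was missed narrowly with library totals (0.34, adjusted p = 0.0504) and without DOX 3 and DOX 4 (0.40, adjusted p = 0.062). It ran from 23.7 to 26.2 CPM (median 25.1) in Tb and was 32.5, 26.8, 33.2, 28.4 and 26.4 in Tb-DOX. Those groups did not overlap either, but the difference of 0.24 did not pass the test (adjusted p = 0.279). *Pik3c3*, the catalytic subunit of the lipid kinase, was at 18.2, 14.9, 17.7, 17 and 17.1 CPM in Control, at 17.6, 20.9, 25.1, 20.9 and 20.9 in DOX, at 13.9 to 21.1 (median 15.9) in Tb and at 17.9, 18.2, 18.0, 18.5 and 17 in Tb-DOX. Its rise without a tumor was the smallest of the 13 (0.31, SE 0.111, adjusted p = 0.033), with DOX 1 inside the Control range, and did not survive 5 of the 21 single-library omissions or the omission of DOX 3 and DOX 4 together (0.22, adjusted p = 0.202). It was also lost with library totals (0.18, adjusted p = 0.333), with no filter and with both limma fits. *Atg2a*, a lipid transfer protein, was at 28.6, 30.6, 24.9, 26.1 and 26.6 CPM in Control, at 26.0, 25, 29.5, 25.6 and 24.2 in DOX, at 20.3 to 24.5 (median 22.2) in Tb and at 25.4, 27.3, 24.0, 24.0 and 26.1 in Tb-DOX. All 6 Tb libraries were below Control, and it was the gene of this role that changed with the tumor (−0.30, SE 0.0806, adjusted p = 0.0275). That call was lost in 6 of 8 alternative fits, with values of −0.33 to −0.20 and adjusted p of up to 0.178. The other 4 genes of this role, *Becn1*, *Atg14*, *Atg2b* and *Wipi1*, passed the test in none of the 5 comparisons.

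Of the 6 genes of the conjugation chain, 33.3% changed with DOX without a tumor, where 36.2% of all genes tested did. DOX raised *Atg4b*, the protease that trims LC3 and GABARAP precursors, and lowered *Atg5*, the partner of ATG12. *Atg4b* was at 21.1, 18.0, 17, 23.7 and 24.9 CPM in Control and at 29.8, 25.5, 32.0, 27.9 and 25.6 in DOX (0.43, SE 0.106, edgeR adjusted p = 0.00367). With limma on log2(FPKM + 1) the value was 0.22 and the call was lost (adjusted p = 0.0517). *Atg5* was at 19.5, 18.5, 16.8, 19.8 and 22.5 CPM in Control and at 14.2, 14.6, 13.7, 12.0 and 16.6 in DOX (−0.45, SE 0.113, adjusted p = 0.00424). Neither gene overlapped between the groups.

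In tumor-bearing hearts *Atg4b* ran from 19.3 to 24.2 CPM (median 22.4) in Tb and was 19.1, 20.8, 21.4, 19.8 and 21 in Tb-DOX, and all 5 Tb-DOX libraries were below all 5 DOX libraries (−0.46, SE 0.106, adjusted p = 0.00461). With library totals the value was −0.28 and the call was lost (adjusted p = 0.0856), as it was with both limma fits. *Atg5* ran from 16 to 22.9 CPM (median 20.7) in Tb and was 16.5, 16.5, 17.4, 19.2 and 18.2 in Tb-DOX, a difference of −0.18 (adjusted p = 0.344). *Atg3*, the E2-like enzyme of the chain, was at 28.1, 27.3, 29.4, 25.6 and 24.2 CPM in Control, at 26.9, 25.9, 33.5, 29.7 and 27.6 in DOX, at 30.1 to 47.0 (median 33.8) in Tb and at 33.2, 33.1, 31.6, 37.5 and 28.9 in Tb-DOX. Every Tb library lay above every Control library, with Tb 5 and Tb 6 the highest, and *Atg3* rose with the tumor by 0.44 (SE 0.116, adjusted p = 0.0238). Without those 2 libraries the value was 0.26 (adjusted p = 0.204). The call was also lost in 4 of 9 alternative fits, with values of 0.38 to 0.48 over the 9 and adjusted p of up to 0.131. Those 4 were both limma fits, only the groups compared and the replicate block. It did not survive 4 of the 21 single-library omissions. *Atg7*, *Atg12* and *Atg16l1* passed in none of the comparisons, although with library totals *Atg12* was lower in DOX than in Control (−0.30, adjusted p = 0.0244).

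Among LC3 and GABARAP genes, DOX without a tumor raised 4 of the 5 (*Map1lc3a*, *Map1lc3b*, *Gabarapl1*, *Gabarapl2*), where 18.0% of all genes tested rose, *Gabarap* reached 0.24 (adjusted p = 0.0918), and the median log2 fold change was 0.48. With library totals 3 of the 4 kept their call, *Map1lc3a* dropping to 0.31 (adjusted p = 0.117), and with both limma fits *Map1lc3b* and *Gabarapl2* kept theirs while *Map1lc3a* (0.35) and *Gabarapl1* (0.46) did not. On the length-corrected scale the Control order was *Map1lc3a* at 95.8 ± 29.9 FPKM, *Gabarap* at 75.6 ± 14.3, *Gabarapl1* at 44.0 ± 6.64, *Gabarapl2* at 24.3 ± 4.06 and *Map1lc3b* at 21.1 ± 0.811 (SD, n = 5). The first and second of that order overlapped in range, as did the last pair.

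*Map1lc3b* (ENSMUSG00000031812, chromosome 8, 122317100 to 122325499, plus strand in GRCm39) encodes LC3B, the protein most used to trace autophagosomes. Control libraries held 161, 163, 154, 156 and 153 CPM, and DOX libraries 228, 256, 382, 349 and 202. All DOX values were above Control, and the gene rose 1.80-fold (log2 0.85, SE 0.15, edgeR adjusted p = 0.000221). In Tb it ran from 148 to 249 CPM (median 176), highest in Tb 5, and Tb-DOX held 192, 208, 223, 193 and 175 CPM. The tumor-bearing groups overlapped and differed by 0.10 (95% interval −0.19 to 0.40, adjusted p = 0.731).

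*Map1lc3a* (ENSMUSG00000027602, chromosome 2, 155118217 to 155119993, plus strand in GRCm39) encodes LC3A and was the single member that rose with DOX in both states. Control libraries held 105, 99.0, 161, 103 and 88.4 CPM, and DOX libraries 146, 184, 121, 164 and 155. Control 3 stood above the other Control libraries and inside the DOX range. Without a tumor the gene rose by 0.47 (SE 0.145, edgeR adjusted p = 0.0151), a call lost without DOX 2 (0.39), and without Control 3 the value was 0.64. Tb libraries ran from 94.4 to 138 CPM (median 99.1), with Tb 5 the highest, and Tb-DOX libraries held 164, 166, 145, 182 and 140. These groups did not overlap, and the rise of 0.60 (SE 0.138, adjusted p = 0.016) was kept in all 21 single-library omissions. Between the states the change of *Map1lc3a* differed by 0.14 (interaction, 95% interval −0.28 to 0.55).

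*Gabarapl2* was at 53.9, 49.9, 66.9, 54.2 and 54.7 CPM in Control, at 68.7, 73.9, 87.6, 85.0 and 75.8 in DOX, at 56.7 to 81.7 (median 59.8) in Tb and at 62.6, 67.0, 68.3, 53.6 and 69.6 in Tb-DOX. It rose without a tumor with no overlap (0.48, SE 0.108, edgeR adjusted p = 0.00162) and differed by 0.01 with one (adjusted p = 0.959). *Gabarapl1* was at 96.8, 93.9, 96.2, 73.6 and 77.9 CPM in Control, at 97.6, 91.7, 129, 255 and 138 in DOX, at 72.2 to 137 (median 86.5) in Tb and at 91.8, 115, 75.6, 83.9 and 97.1 in Tb-DOX. DOX 4 was far above the rest, DOX 2 lay inside the Control range, and the rise of 0.70 (SE 0.217, adjusted p = 0.0156) was lost without DOX 4 (0.39) and without DOX 3 and DOX 4 together (0.32, adjusted p = 0.217). DOX 4 and Tb 5, the highest libraries of their groups for this gene, were also the highest for 8 T cell and thymocyte markers (summed 311 CPM in DOX 4 against 5.32 to 14.6 in the other DOX libraries, and 46.0 in Tb 5 against 2.87 to 4.55 in the other Tb libraries), whose part in the result was not tested.

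**Figure D2:**
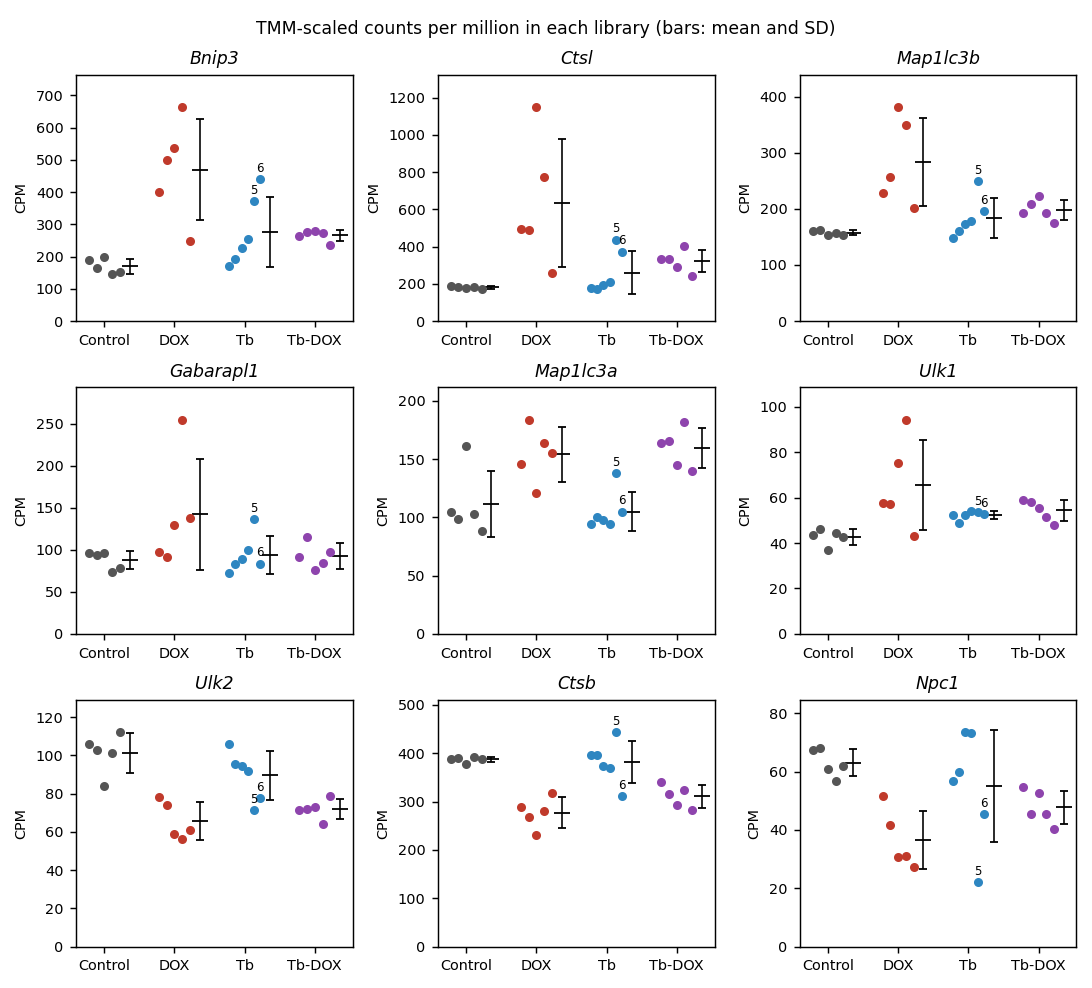
CPM (TMM-scaled counts, linear axis from 0) of 9 members in each library, with the group mean and SD as bars; the digits mark Tb 5 and Tb 6. For *Bnip3*, *Ctsl* and *Map1lc3b* every DOX point lies above every Control point, while Tb and Tb-DOX points overlap.

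Cargo receptors link ubiquitinated cargo to LC3, and DOX without a tumor raised 2 of the 3, where 18.0% of all genes tested rose. *Optn*, optineurin, was at 112, 101, 117, 91.7 and 109 CPM in Control, at 139, 134, 154, 223 and 114 in DOX, at 86.2 to 145 (median 104) in Tb and at 136, 130, 135, 115 and 129 in Tb-DOX. DOX 5 overlapped with Control, and *Optn* rose by 0.53 (SE 0.147, edgeR adjusted p = 0.00832) without a tumor. The call was lost with library totals (0.38, adjusted p = 0.0608), with both limma fits, and without DOX 3 and DOX 4 (0.28, adjusted p = 0.128). *Sqstm1*, which encodes p62, was at 369, 341, 354, 308 and 306 CPM in Control and at 324, 332, 668, 535 and 350 in DOX. In other words, DOX 1, DOX 2 and DOX 5 lay inside the Control range, and DOX 3 and DOX 4 carried the difference of 0.40 (SE 0.151, adjusted p = 0.0441). Without those 2 libraries it was 0.00 (SE 0.0883, adjusted p = 0.999), and the call did not survive 10 of the 21 single-library omissions. With library totals the difference was 0.28 (adjusted p = 0.234), and the call was lost in 6 of 9 alternative fits. *Sqstm1* ran from 334 to 401 CPM (median 379) in Tb and was 346, 393, 399, 393 and 354 in Tb-DOX. *Nbr1* passed in none of the comparisons.

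Of the 4 mitophagy genes, DOX without a tumor raised *Bnip3* and *Bnip3l*, paralogous outer mitochondrial membrane receptors that bind LC3, and left *Pink1* (0.00, 95% interval −0.19 to 0.19) and *Fundc1* (−0.25, adjusted p = 0.0861) short of the threshold. Of all genes tested 18.0% rose. With library totals *Fundc1* was lower (−0.39, adjusted p = 0.0114). *Bnip3* (ENSMUSG00000078566, chromosome 7, 138492565 to 138511248, minus strand in GRCm39) was at 188, 165, 198, 145 and 153 CPM in Control and at 399, 500, 538, 665 and 247 in DOX. Every DOX library was above Control, DOX 5 least so, and the gene rose 2.76-fold (log2 1.47, SE 0.236, edgeR adjusted p = 9.39e-05). In Tb it was at 170, 193, 226, 255, 373 and 440 CPM, and in Tb-DOX at 264, 276, 280, 273 and 237. Tb 5 and Tb 6 were above all Tb-DOX libraries and Tb 1 to Tb 3 below them, and the groups differed by −0.06 (95% interval −0.52 to 0.40, adjusted p = 0.914). Without Tb 5 and Tb 6 that difference was 0.33 (adjusted p = 0.281), and with all libraries it was 0.04 with either limma fit and 0.13 with the replicate block, so its sign was not settled.

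*Bnip3l*, also called Nix, was at 75.9, 71.1, 65.3, 73.1 and 61.9 CPM in Control, at 77.7, 88.0, 113, 96.2 and 79.3 in DOX, at 70.4 to 96.0 (median 81.0) in Tb and at 79.7, 79.7, 81.9, 83.4 and 80.5 in Tb-DOX. It rose without a tumor and without overlap (0.39, SE 0.0985, edgeR adjusted p = 0.00426), and with a tumor it differed by −0.01 (adjusted p = 0.957). The call was lost with library totals (0.26, adjusted p = 0.104), with both limma fits (0.24 and 0.23) and without both DOX 3 and DOX 4 (0.23, adjusted p = 0.0746).

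At the lysosome, DOX without a tumor lowered 1 of 4 membrane genes (25%), *Npc1*. Of 7 genes of the lumen it raised *Ctsl* and lowered *Ctsb* and *Hexa* (42.9%), where 36.2% of all genes tested changed. *Npc1*, which exports cholesterol from the lysosome, was at 67.4, 68.0, 60.9, 56.9 and 62.0 CPM in Control and at 51.7, 41.7, 30.9, 31.1 and 27.4 in DOX, without overlap (−0.78, SE 0.223, edgeR adjusted p = 0.00897). Without DOX 3 and DOX 4 the value was −0.65 and the call was lost (SE 0.264, adjusted p = 0.0835). Tb libraries were at 56.9, 59.7, 73.4, 73.1, 22.2 and 45.3 CPM and Tb-DOX libraries at 54.6, 45.6, 52.5, 45.6 and 40.4. Tb 5 was below every other library of the series for this gene, and the tumor-bearing difference of −0.21 (adjusted p = 0.631) became −0.46 (SE 0.145, adjusted p = 0.0453) without Tb 5 and Tb 6.

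*Ctsb*, the cysteine protease cathepsin B, was at 388, 391, 378, 392 and 388 CPM in Control and at 288, 268, 230, 280 and 318 in DOX, without overlap (−0.48, SE 0.0911, edgeR adjusted p = 0.000396). It ran from 311 to 443 CPM (median 385) in Tb and was 341, 316, 292, 324 and 283 in Tb-DOX, where the difference of −0.29 was just short of the threshold (SE 0.0873, adjusted p = 0.0554). Without Tb 5 and Tb 6 it passed (−0.30, adjusted p = 0.0251). *Hexa*, a subunit of the hexosaminidase that degrades gangliosides, was at 38.8, 38.5, 47.0, 34.3 and 37.2 CPM in Control, at 28.3, 21.7, 21.5, 33.1 and 32.9 in DOX, at 38.9 to 47.1 (median 42.0) in Tb and at 34, 39.6, 34.6, 34.6 and 30.8 in Tb-DOX. It fell without a tumor (−0.51, SE 0.12, adjusted p = 0.00249), with no overlap, and differed by −0.29 with one (adjusted p = 0.155).

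*Ctsl*, cathepsin L (ENSMUSG00000021477, chromosome 13, 64507151 to 64518704, minus strand in GRCm39), went the other way and had the largest change among the 40. Control libraries held 190, 183, 177, 181 and 171 CPM, and DOX libraries 493, 487, 1152, 773 and 257. The DOX libraries were all above Control, with DOX 3 the highest and DOX 5 the lowest, and the gene rose 3.51-fold (log2 1.81, SE 0.307, edgeR adjusted p = 0.000154). Without DOX 3 and DOX 4 the rise was 1.19 (adjusted p = 0.00382). Tb libraries were at 177, 173, 191, 209, 438 and 373 CPM, so that 4 of them were near Control and Tb 5 and Tb 6 were not, and Tb-DOX libraries were at 334, 336, 288, 401 and 243. The tumor-bearing groups differed by 0.30 (95% interval −0.29 to 0.89, adjusted p = 0.598), or by 0.78 without Tb 5 and Tb 6 (adjusted p = 0.0578).

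The most abundant lysosomal genes did not pass with DOX in either state. *Ctsd*, cathepsin D, was the highest of the 40 per length, at 202 FPKM over all libraries, and differed by −0.01 without a tumor (95% interval −0.24 to 0.23) and by −0.02 with one (−0.25 to 0.20). *Lamp1*, a major glycoprotein of the lysosomal membrane, was next at 156 FPKM. It differed by −0.01 without a tumor (−0.16 to 0.14), while with a tumor all 5 Tb-DOX libraries (351 to 406 CPM) lay below the 6 Tb libraries (406 to 529 CPM, equal to the nearest only by rounding) and the difference of −0.22 did not pass (adjusted p = 0.072). *Lamp2*, *Mcoln1*, *Neu1*, *Npc2* and *Ctss* also passed in none of the comparisons. *Neu1* was at 39.0 CPM in Tb 5 and at most 18.9 CPM in every other library.

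*Ctss*, cathepsin S, is known for its expression in antigen-presenting cells. It was at 11.7 to 17.7 CPM in Control and at 19.0 to 31.7 CPM in Tb, with no overlap, and the difference of 0.74 missed the threshold (adjusted p = 0.0608). Markers of other cells also differed between the groups. The summed level of 12 macrophage markers was 244 to 295 CPM in Control, 125 to 197 in DOX, 313 to 410 in Tb and 194 to 431 in Tb-DOX. DOX without a tumor lowered 8 of these 12 markers and raised 1, and with a tumor it lowered 2. Of all genes tested 18.0% rose and 18.2% fell without a tumor, and 2.18% rose and 2.54% fell with one. The defining genes *Adgre1* and *Csf1r* changed by −1.98 and −1.20 without a tumor. Of the macrophage markers, none was at 0 throughout a group. Dendritic cell and MHC class II genes (6, of which 4 were tested) summed to 66 to 119 CPM in Control, 4.64 to 24.1 in DOX, 49.9 to 122 in Tb and 13.2 to 29.4 in Tb-DOX, and all 4 fell with DOX in both states. The part of these lists in the values of *Ctsb*, *Hexa*, *Npc1* and *Ctss* was not tested.

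Neutrophil markers moved with the libraries that stood out for *Ctsl*, *Bnip3* and *Atg3*. The summed level of 10 such markers was 0.651 to 3.15 CPM in Control, where *Ly6g* was at 0 throughout, 7.28 to 58.1 in DOX, 571 to 5464 in Tb and 846 to 3654 in Tb-DOX. It was highest among Tb libraries in Tb 5 (5464 CPM) and Tb 6 (4691 CPM), and among DOX libraries in DOX 3 (58.1 CPM) and DOX 4 (29 CPM). Of the 10 markers DOX without a tumor raised 6 and with a tumor 0, all 10 rose with the tumor in saline-treated mice, and 5 had a negative interaction. Of all genes tested 18.0% rose with DOX without a tumor and 2.18% with one. With the tumor in saline-treated mice 6.28% changed, and 8.94% differed in the interaction. Erythroid markers also fell with DOX, 5 of the 5 tested in each state, and of 7 fibroblast markers DOX lowered 4 and raised 1 without a tumor and lowered 3 with one. Falls took in 18.2% of all genes tested without a tumor and 2.54% with one. The part of these lists in the members' values was not tested. The 8 cardiomyocyte markers summed to 59488 to 74175 CPM in Control, 75985 to 91075 in DOX, 49495 to 59500 in Tb and 63374 to 78955 in Tb-DOX, higher with DOX without overlap in both states. By gene, DOX without a tumor raised 4 of the 8 and lowered 1, and with a tumor it raised 3 and lowered 0. The median log2 fold change of the 8 was 0.33 in each state, with lowest values of −0.39 and −0.4. Their part in the members' values was not tested either.

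**Figure D3:**
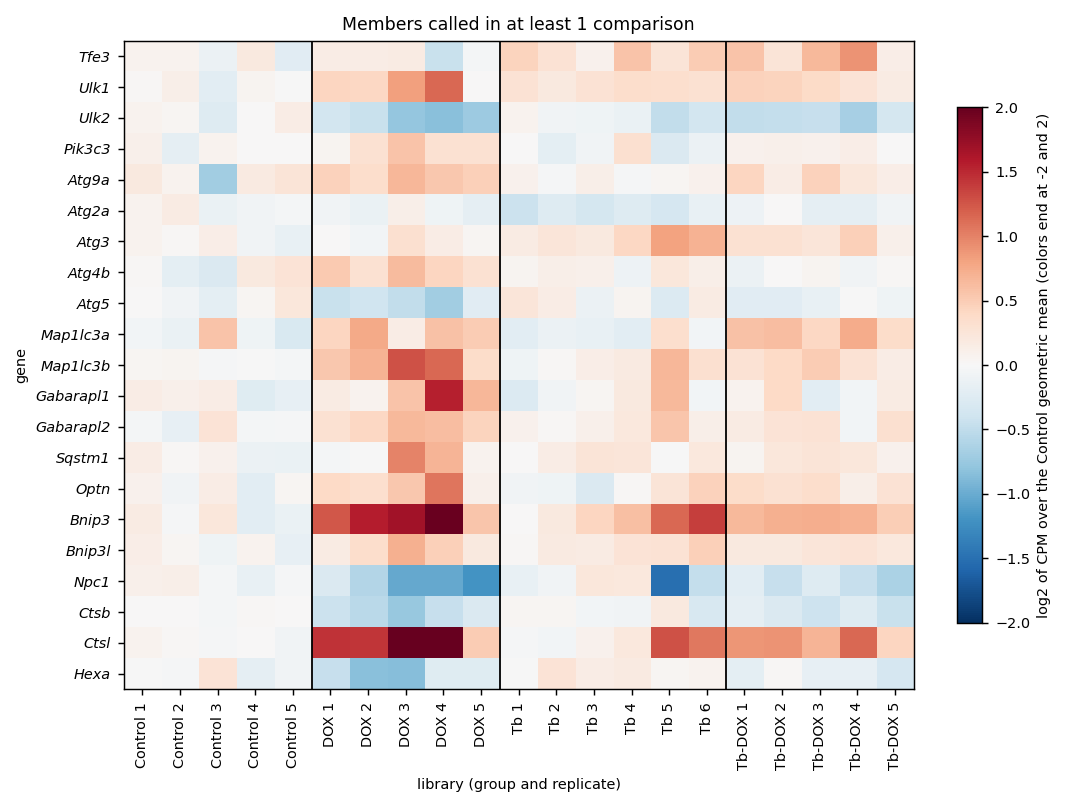
Log2 of CPM over the Control geometric mean (color, ending at −2 and 2) in each of the 21 libraries (columns) for the 21 members called in at least 1 comparison (rows). Red rows of *Bnip3* and *Ctsl* are deepest in DOX 3 and DOX 4 and are also red in Tb 5, Tb 6 and every Tb-DOX library (at least 0.43 for *Ctsl* and 0.49 for *Bnip3*), and Tb 5 has the deepest blue for *Npc1*.

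A wider set of 144 further genes of the pathway, 141 of them tested, gave the surroundings of these changes. This set too was chosen with earlier results of these data known. DOX without a tumor raised 30 and lowered 23 of them, 37.6% in all against 36.2% of all genes tested. Of the lysosomal hydrolases 1 of 37 rose and 14 fell, where 18.0% of all genes tested rose and 18.2% fell, with a median log2 fold change of −0.20 against 0.00 over all genes tested. Its largest falls were *Arsb*, arylsulfatase B (−1.54, SE 0.202, edgeR adjusted p = 1.58e-05), *Ctsc*, cathepsin C (−1.22, adjusted p = 7.37e-05), *Manba*, beta-mannosidase (−0.97, adjusted p = 7.71e-05), and *Arsa*, arylsulfatase A (−0.75, adjusted p = 0.000215). The macrophage markers above moved in the same libraries, and their part was not tested.

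In the same comparison, with 18.0% of all genes tested up and 18.2% down, 6 of 13 further genes of the ULK1 and PI3-kinase complexes rose and 1 fell (median 0.30), with *Atg13*, an adaptor of ULK1, up by 0.87 (SE 0.168, edgeR adjusted p = 0.000502) and *Rubcn*, an inhibitor of the lipid kinase, down at −0.92 (SE 0.236, adjusted p = 0.00478). Fusion genes showed 5 rises and 1 fall among 15, led by the SNARE *Vamp8* (0.87, adjusted p = 0.000156) and the tethering subunit *Vps11* (0.84, adjusted p = 8.34e-05). For mTORC1 and TFEB control 8 of 26 rose and 3 fell, for the proton pump (V-ATPase) 5 of 16 rose and 2 fell, and for membrane and sorting genes 1 of 19 rose and 2 fell. Of the 10 further receptor and mitophagy genes 3 rose and 0 fell, among them the receptor *Tax1bp1* (0.62, adjusted p = 0.000263) and the mitochondrial deubiquitinase *Usp30* (0.62, adjusted p = 0.00738), and of 5 further conjugation genes 1 rose (median −0.17). These splits also depended on scaling: with library totals 15 of the 141 rose and 35 fell, near the 10.2% and 25.2% of all genes tested, among them 3 and 2 of the ULK1 and PI3-kinase genes, 4 and 2 of the fusion genes and 0 and 20 of the hydrolases. Without DOX 3 and DOX 4, 18 rose and 16 fell, 13 of the latter hydrolases, in a fit where 23.1% of all genes tested changed.

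With a tumor, DOX raised 3 and lowered 3 of the 141, 4.26% against 4.72% of all genes tested. *Mtor*, the kinase that restrains autophagy, rose by 0.54 (SE 0.0885, edgeR adjusted p = 0.00188), *Ambra1*, a scaffold of the initiation complexes, by 0.57 (adjusted p = 0.0144) and *Flcn*, folliculin, by 0.68 (adjusted p = 0.0449). *Arsb* fell again (−0.67, SE 0.186, adjusted p = 0.0416), as did *Lgmn*, legumain (−0.60, adjusted p = 0.026), and *Ostm1*, a partner of the lysosomal chloride transporter (−0.39, adjusted p = 0.00962). Without Tb 5 and Tb 6 these counts were 9 up and 8 down, where 10.3% of all genes tested changed.

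**Figure D4:**
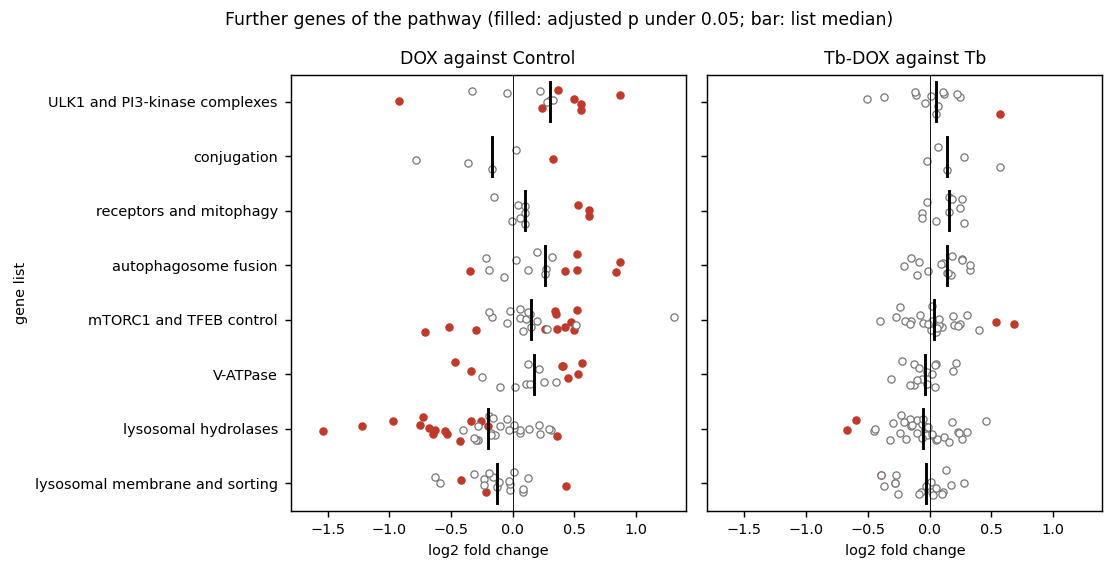
Log2 fold change of the 141 further pathway genes tested, by list, for DOX against Control (left) and Tb-DOX against Tb (right); filled points have an adjusted p under 0.05 and bars are list medians. On the left 14 of 37 lysosomal hydrolases are filled below 0, and on the right 6 points of all lists are filled.

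Whether the DOX change differed with the tumor was tested directly, as the Tb-DOX minus Tb change less the DOX minus Control change. It differed for 4 of the 40 genes (10%), where 8.94% of all genes tested differed, and all 4 differences were negative. *Bnip3* had a difference of −1.52 (SE 0.323, edgeR adjusted p = 0.0135), *Ctsl* of −1.51 (SE 0.415, adjusted p = 0.0306), *Map1lc3b* of −0.74 (SE 0.207, adjusted p = 0.0313) and *Atg4b* of −0.54 (SE 0.147, adjusted p = 0.0296). These genes had risen without a tumor and did not pass with one. Without Tb 5 and Tb 6, *Bnip3* (−1.14, adjusted p = 0.0129) and *Atg4b* (−0.50, adjusted p = 0.0489) still passed, and *Ctsl* (−1.04, adjusted p = 0.0701) and *Map1lc3b* (−0.59, adjusted p = 0.0613) did not. Without both DOX 3 and DOX 4 the count was 0, where 0.979% of all genes tested differed. The values were then −1.22 for *Bnip3* (adjusted p = 0.0641), −0.89 for *Ctsl* (0.166), −0.44 for *Map1lc3b* (0.154) and −0.48 for *Atg4b* (0.108). With library totals *Bnip3* still passed (−1.38, adjusted p = 0.0198), and *Ctsl* (−1.37, adjusted p = 0.0504), *Map1lc3b* (−0.60, adjusted p = 0.0812) and *Atg4b* (−0.40, adjusted p = 0.107) did not.

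The comparisons of DOX with Control and of Tb-DOX with Tb share no library. Of the 13 genes that rose without a tumor, 12 had a smaller value with a tumor and 9 had the same sign, and their median went from 0.48 to 0.06. All 5 that fell kept their sign, each with a smaller size, and their median went from −0.51 to −0.29. The 13 and 5 were chosen by the first comparison, so these counts are a description with no test. Without Tb 5 and Tb 6, DOX with a tumor raised 1 of the 40 (*Map1lc3a*, 0.72) and lowered 3 (*Ulk2*, *Npc1* and *Ctsb*), where 10.3% of all genes tested changed.

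**Figure D5:**
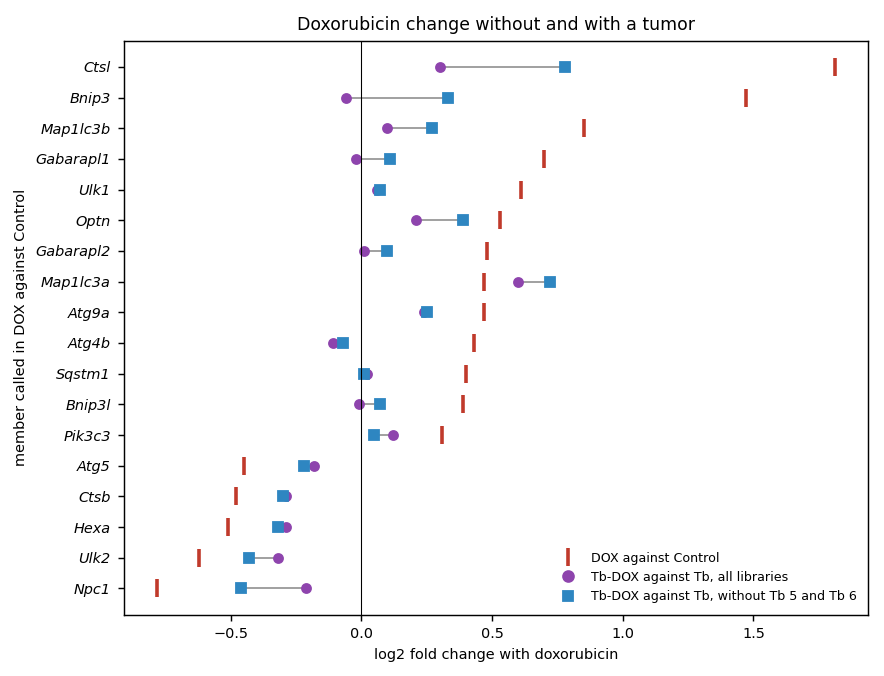
Log2 fold change with DOX of the 18 members called in DOX against Control (red bars), in Tb-DOX against Tb with all libraries (purple circles) and without Tb 5 and Tb 6 (blue squares). Circles lie nearer 0 than the red bars for all but *Map1lc3a*, and leaving out the pair of Tb libraries moves *Ctsl* from 0.30 to 0.78 and *Bnip3* from −0.06 to 0.33.

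The tumor itself changed 2 of the 40 genes in saline-treated mice (5%), where 6.28% of all genes tested changed: *Atg3* rose and *Atg2a* fell, as given above. The count was 0 without Control 2 (4.25% of all genes tested), 4 without Tb 1 (8.61%) and 5 without DOX 3 and DOX 4 (7.18%). Tb libraries were all above Control for *Ulk1*, *Atg3* and *Ctss*, as they were for 4.21% of all genes tested, and all below for *Atg2a*, as for 1.97%. *Bnip3* reached 0.70 (SE 0.224, edgeR adjusted p = 0.0668) with a range in Tb wider than in Control. In DOX-treated mice the tumor groups differed for 5 of the 40 (12.5%), where 17.5% of all genes tested differed. *Tfe3* was higher in Tb-DOX, and *Atg4b*, *Map1lc3b* (−0.52, SE 0.149, adjusted p = 0.0203), *Bnip3* (−0.82, SE 0.232, adjusted p = 0.0183) and *Ctsl* (−0.98, SE 0.3, adjusted p = 0.0275) were lower. Of all genes tested 9.52% were higher and 7.93% lower. Among the 40, the groups did not overlap for *Atg4b* alone, where 6.83% of all genes tested were lower without overlap. Without DOX 3 and DOX 4 only *Atg4b* of these 5 still passed (−0.40, adjusted p = 0.0407), with *Tfe3* at 0.44 (0.0963), *Map1lc3b* at −0.21 (0.344), *Bnip3* at −0.52 (0.202) and *Ctsl* at −0.36 (0.447). Without Tb 5 the count was 10, 3 higher and 7 lower, where 24.9% of all genes tested differed. With library totals, which moved the median over all genes tested to 0.18 in this comparison, 5 genes were called and all were higher in Tb-DOX (12.5%, where 18.0% of all genes tested were higher and 2.31% lower), and the 4 lower calls were lost. The values of those 4 were then −0.81 for *Ctsl* (adjusted p = 0.0694), −0.63 for *Bnip3* (0.0693), −0.34 for *Map1lc3b* (0.132) and −0.28 for *Atg4b* (0.0856). These comparisons reuse the DOX, Tb and Control libraries of the comparisons above. Over all 5 comparisons 21 of the 40 genes were called at least once and 19 never.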

How the data were processed

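The authors isolated mRNA with oligo(dT), sequenced it in paired ends and trimmed reads with Cutadapt. The submitters' processing notes name HISAT2, HTSeq 0.6.1, DESeq2 1.34.0 and build GRCm39. The deposited table gives each gene's raw count and its FPKM in every library; its annotation columns were not used. The deposited FPKM equals the count scaled by exonic length and by the library total in 100% of values (within 0.0051). Nothing says that libraries of a group came from pooled animals, and p-values measure the spread between these samples.

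Counts of all 21 libraries were fitted together in edgeR 4.0.16 (R 4.3.3) with TMM factors (0.881 to 1.14), 1 coefficient per group and two-sided quasi-likelihood F tests, after a check on simulated data. Testing was limited to mean FPKM values of 0.5 or more, and the Benjamini-Hochberg adjustment ran over all genes so kept. CPM values are TMM-scaled, and FPKM was used to compare levels between genes. The members, lists and motifs were chosen with earlier results of these data known. Members called in any comparison are named with their values by library (for the 6 Tb libraries mostly the lowest, median and highest), and of the wider lists up to 5 called genes per direction with the largest change per DOX comparison. The macrophage markers *Adgre1* and *Csf1r*, *Neu1*, *Ctss* and members that missed the threshold were chosen after their values were seen. Same-numbered libraries had residual correlations of −0.261 to 0.234, so numbers were not taken as pairs. No 2 replicates were alike within counting error (chi-square per degree of freedom 5.79 to 105). The values were 88 to 100 for pairs with Control 3 and 77 to 105 for pairs with Tb 5. Alternatives were other scalings (median-ratio, library totals), filters (none, mean FPKM of at least 5), DESeq2 1.42.0, limma 3.58.1 on log2(FPKM + 0.1) and log2(FPKM + 1), only the groups compared, a replicate block, stricter thresholds, each library left out and, chosen after seeing the data, Tb 5 with Tb 6 or DOX 3 with DOX 4 left out. Counting was not stated to use strand, so overlapping and antisense reads cannot be separated. Promoter windows came from RefSeq, GRCm38.p6, joined by symbol; a GENCODE transcript of the gene began within 50 bases of the start in 29 of 36 member windows, among them all that are printed.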

Additional observations from a re-analysis of the deposited data

Results flagged for a closer look

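Of 84 groups of libraries tested for a single value far from the rest (21 genes called in at least 1 comparison, 4 groups each), 7 had one, and chance gives about 1 in 20, or 4.2. *Atg9a* was lowest in Control 3, at 14.9 CPM against 25.3 for the nearest library. *Map1lc3a* was highest in Control 3, at 161 CPM (nearest 105), and among Tb libraries in Tb 5, at 138 CPM (nearest 105). *Gabarapl1* was highest in DOX 4, at 255 CPM (nearest 138). *Gabarapl2* was highest in Control 3, at 66.9 CPM (nearest 54.7), and among Tb libraries in Tb 5, at 81.7 CPM (nearest 64.7). *Ctsb* was lowest in Control 3, at 378 CPM (nearest 388), a small gap in a group with a narrow range.

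For 4 genes the DOX change differed between tumor-bearing and tumor-free mice by the interaction test in edgeR: *Bnip3* by −1.52 (SE 0.323, adjusted p = 0.0135), *Ctsl* by −1.51 (SE 0.415, adjusted p = 0.0306), *Map1lc3b* by −0.74 (SE 0.207, adjusted p = 0.0313) and *Atg4b* by −0.54 (SE 0.147, adjusted p = 0.0296). These are 10% of the 40, where 8.94% of all genes tested differed. With library totals *Bnip3* alone passed (8.47% of all genes), and without DOX 3 and DOX 4 none did (0.979%).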

How the results depend on the processing

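The count of 18 members for DOX against Control ran from 13 (6 up, 7 down, limma on log2(FPKM + 1)) to 20 under every alternative except a minimum absolute log2 fold change of 1 (2 members) and without both DOX 3 and DOX 4 (12), and from 16 to 19 when 1 library was left out. The 20 came without both Tb 5 and Tb 6, where 43.6% of all genes tested changed, against 36.2% as reported. That share was 34.5% in the limma fit with 13, 9.95% with the minimum change of 1 and 23.1% without DOX 3 and DOX 4. With a floor of 5 on the mean FPKM only 26 members were tested, here and below, and 14 of them were called. Small counts moved more, and causes were not tested. Tb-DOX against Tb, 1 in the fit as reported, gave 3 with a floor of 5 on the mean FPKM, 4 with DESeq2, 2 with either limma fit, 0 with a minimum change of 1 or an adjusted p under 0.01, 4 without both Tb 5 and Tb 6, 2 without both DOX 3 and DOX 4, and 1 to 2 with 1 library left out (2 without DOX 3, DOX 5, Tb 5 or Tb 6). The interaction, 4 as reported, gave 1 with library totals, 7 with DESeq2, 2 and 1 with limma on log2(FPKM + 0.1) and log2(FPKM + 1), 2 with a minimum change of 1, 0 at an adjusted p under 0.01, 2 and 0 without the pairs, and 1 (without DOX 3) to 7 (without DOX 5) with 1 library left out, with 2 without DOX 4, Tb-DOX 1 or Tb-DOX 5. Left out singly, libraries never ended the *Bnip3* interaction; they ended that of *Ctsl* in 6, *Map1lc3b* in 6 and *Atg4b* in 3 of 21 fits. Tb against Control, 2 as reported, gave 1 with library totals, 1 with that FPKM floor, 4 with DESeq2, 0 with either limma fit, a minimum change of 1 or an adjusted p under 0.01, 1 and 5 without the pairs, and 0 (without Control 2) to 4 (without Tb 1), with 1 without Control 1, 4 or 5, Tb 3 or Tb 6. Tb-DOX against DOX, 5 as reported, gave 0 with a minimum change of 1, 1 at an adjusted p under 0.01, 10 and 1 without the pairs, and 2 (without DOX 4) to 10 (without Tb 5), with 3 without DOX 3 and 8 without DOX 5. The value of *Bnip3* in Tb-DOX against Tb, −0.06 as reported, was 0.04 with either limma fit, 0.13 with the replicate block, 0.33 without both Tb 5 and Tb 6, and −0.16 to 0.13 with 1 library left out (0.05 without Tb 5, 0.13 without Tb 6); its adjusted p in the reported fit was 0.914. The 14 falling hydrolases of the wider list were 12 to 20, except 6 with the FPKM floor and 2 with a minimum change of 1. The shares of all genes tested moved too. For Tb-DOX against Tb, 4.72% as reported, the share was 7.68% with DESeq2, 3% and 3.43% with the limma fits, 10.3% without Tb 5 and Tb 6 and 6.46% without DOX 3 and DOX 4. It was 1.11% with a minimum change of 1 and 0.965% at an adjusted p under 0.01. For the interaction, 8.94% as reported, it was 8.47% with library totals, 14.6% with DESeq2, 7.30% and 6.78% with the limma fits, 7.33% and 0.979% without the pairs, 4.70% without DOX 3 and 12.3% without DOX 5. The same 2 stricter thresholds gave 3.89% and 0.436%. For Tb against Control, 6.28% as reported, it was 5.88% with library totals, 8.16% with DESeq2, 4.39% and 4.71% with the limma fits, and 3.25% and 7.18% without the pairs. The stricter thresholds gave 3.60% and 3.12%. For Tb-DOX against DOX, 17.5% as reported, it was 26.3% and 8.66% without the pairs, 13.3% without DOX 4 and 24.9% without Tb 5. The stricter thresholds gave 5.62% and 7.71%. With the replicate number as a block, the counts in the order above were 17, 2, 1, 0 and 4. The share of all genes tested was then 34.9%, 5.67%, 3.62% and 3.35% in the first 4 of these. For Tb-DOX against DOX 2167 of 13990 genes were called with the block and 2442 in the reported fit. Replicate numbers are not known to mark shared litters or days. The interaction was not refitted on only the groups compared, since it uses all 4.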
